A study of Mus musculus with 2 samples.

Results

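The cells described here are the Gdf10 Mfap4 F3 fibroblasts of the mouse aorta, called Gdf10 fibroblasts from here on. A barcode was taken as a fibroblast if it held at least 5 of the 8 genes Pdgfra, Dpt, Lum, Dcn, Col1a1, Col1a2, Serpinf1 and Clec3b, and more of these than of the 8 endothelial genes Pecam1, Cdh5, Tie1, Egfl7, Cldn5, Ecscr, Esam and Eng. A fibroblast was taken as a Gdf10 fibroblast if its summed unique molecular identifiers (UMIs, each standing for 1 captured RNA molecule) of Gdf10, Mfap4, F3, Angptl1, Gas1 and Fbln7 exceeded those of Dact2, Igfbp5, Sema3c, Pla1a, Adamts5 and Aldh1a3. The rule found 145 Gdf10 fibroblasts among 786 fibroblasts and 4774 barcodes. They were 56 of 548 fibroblasts in the old library and 89 of 238 in the young library. The other 641 fibroblasts, 492 old and 149 young, carried as many or more UMIs of the opposite 6 genes.

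The old library came from 1 mouse aged 18 months and the young library from 1 mouse aged 8 weeks, both of the C57BL6/J strain, with no further genotype or treatment given. The study set out to compare endothelial cells of the aorta at these ages. Per the labels' protocol, each aorta was dissected free of its adventitia, the outer coat of the vessel, and cells were then loosened from the inner surface with trypsin and a small blade. Fibroblasts are therefore not the cells the preparation was made for, and the labels do not say how much outer wall each preparation carried along. With 1 animal, 1 preparation and 1 library per age, these cannot be told apart from age, no difference between ages has a replicate check, and no test was made. All 95% intervals cover counting error only, and those of ratios are exact binomial intervals for how a gene's UMIs divide between a pair of sums.

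Fibroblasts of the aortic wall lay down the collagens, proteoglycans and microfibrils that surround the muscle layers, and they lie mostly in the adventitia. Within the adventitia, fibroblasts that carry Pi16, Cd55 and Dpp4 are known as progenitor-like cells, while others make more matrix and signalling proteins. Of the genes that chose the Gdf10 fibroblasts, Gdf10 encodes a ligand of the TGF-beta superfamily, Mfap4 a microfibril-associated glycoprotein that binds elastic fibres, and F3 tissue factor, the cell-surface protein that starts blood clotting when plasma reaches the cells around a vessel. Angptl1 is a secreted angiopoietin-like protein, Gas1 a membrane protein that acts as a hedgehog co-receptor, and Fbln7 a fibulin, a secreted matrix glycoprotein. On the opposite side, Dact2 is an intracellular antagonist of Wnt and Nodal signalling, Igfbp5 binds insulin-like growth factors, Sema3c is a secreted guidance cue, Pla1a a phospholipase, Adamts5 a protease that cuts aggrecan and versican, and Aldh1a3 an enzyme that makes retinoic acid.

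The promoters of 3 genes are shown, since they belong to 2 genes that chose the cells and to the gene outside the rule that ranked second among those higher in them. RefSeq's promoter table on GRCm38.p6 held 5 of the 6 marker genes. Each sequence is the 250 bases before the gene's start in RefSeq, written 5′ to 3′ on the gene's own strand. GENCODE, used for gene coordinates below, puts the start of Inmt at 55175043, so part of the Inmt window lies inside the GENCODE gene. They are the promoters of Gdf10 (chr14:33923337-33923586, plus strand), F3 (chr3:121723287-121723536, plus strand) and Inmt (chr6:55174991-55175240, minus strand), where Inmt encodes indolethylamine N-methyltransferase. Capitals mark the TATA box letters TATAAA, the GC box letters GGGCGG or their complement CCGCCC, and the AP-1 letters TGANTCA.
Gdf10: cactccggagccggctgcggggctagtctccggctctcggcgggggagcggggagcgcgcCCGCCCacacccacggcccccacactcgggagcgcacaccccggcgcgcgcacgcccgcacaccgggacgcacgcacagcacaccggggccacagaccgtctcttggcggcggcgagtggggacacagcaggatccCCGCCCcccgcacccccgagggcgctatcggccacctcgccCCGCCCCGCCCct
F3: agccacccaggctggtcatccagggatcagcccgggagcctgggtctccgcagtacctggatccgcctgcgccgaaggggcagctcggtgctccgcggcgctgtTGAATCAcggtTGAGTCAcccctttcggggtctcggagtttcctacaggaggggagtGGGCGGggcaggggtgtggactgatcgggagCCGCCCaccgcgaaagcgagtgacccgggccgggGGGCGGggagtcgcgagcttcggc
Inmt: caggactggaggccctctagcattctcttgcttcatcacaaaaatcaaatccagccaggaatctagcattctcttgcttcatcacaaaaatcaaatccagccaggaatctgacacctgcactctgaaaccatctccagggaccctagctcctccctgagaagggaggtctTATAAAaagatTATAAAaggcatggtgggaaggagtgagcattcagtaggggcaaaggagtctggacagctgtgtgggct
The Gdf10 promoter held 78.8% G and C, the F3 promoter 70.0% and the Inmt promoter 48.0%, against a mean of 53.2% over all promoters of that length. Gdf10 carried 4 GC boxes and F3 carried 3 GC boxes and 2 AP-1 matches, while Inmt carried 2 TATA boxes and no GC box. Searched on both strands, with overlapping matches counted, 32.7% of 32851 promoters held a GC box, 12.4% a TATA box and 6.75% an AP-1 match. These matches describe the letters in the window and say nothing of which factors bind there.

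The old library held 3408 barcodes and 19171045 UMIs, and the young library 1366 barcodes and 12576023 UMIs. The 56 old Gdf10 fibroblasts held 223161 UMIs with a median of 2875.5 per barcode, and the 89 young ones 641774 UMIs with a median of 7043. Other fibroblasts were deeper in both libraries, with a median of 4909.5 UMIs in the old and 9498 in the young library. The deepest old Gdf10 fibroblast alone held 21141 UMIs, which is 9.47% of the old sum, and it carried 6 of the 8 endothelial markers with 3 UMIs of its own side's genes against 2 of the opposite side's. The libraries shared 11 barcodes, of which 2 were Gdf10 fibroblasts in either library. Levels are in CPM, the UMIs of a gene summed over the barcodes of a kind in a library and scaled to 1000000 UMIs of those barcodes.

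Marker levels were read in each kind of barcode. The 8 fibroblast and 8 endothelial markers also chose the fibroblast and endothelial barcodes, so their levels describe the choice and do not check the label. All 8 fibroblast markers were present in the Gdf10 fibroblasts and summed to 18825 CPM in the old and 30107 CPM in the young library, against 472 CPM in old and 429 CPM in young endothelial barcodes. The 8 endothelial markers summed to 1026 CPM in old and 433 CPM in young Gdf10 fibroblasts, to 853 CPM in old and 571 CPM in young other fibroblasts, and to 8158 CPM in old and 8259.8 CPM in young endothelial barcodes. At least 2 endothelial markers were seen in 41 of 56 old and 51 of 89 young Gdf10 fibroblasts, and at least 4 in 9 old and 14 young ones. Endothelial RNA was thus seen in most Gdf10 fibroblast barcodes. Its part in the results was not tested, and values without the barcodes that held several such markers are given beside some of them.

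Markers of other cell types varied. Of 8 smooth muscle markers, 5 were seen in old and 4 in young Gdf10 fibroblasts, while Myh11 and Myocd were at 0 in both libraries. The 8 summed to 108 CPM in old and 54.5 CPM in young Gdf10 fibroblasts. In other fibroblasts they summed to 84.0 CPM old and 39.1 CPM young, and in endothelial barcodes to 428 CPM old and 387 CPM young. Of 4 adipocyte markers, Adipoq, Plin1 and Cidec were at 0 in the Gdf10 fibroblasts of both libraries. The 6 pericyte markers summed to 206 CPM in old Gdf10 fibroblasts, against 41.8 CPM in old other fibroblasts, and to 277 CPM in young Gdf10 fibroblasts, against 70.4 CPM in young other fibroblasts. Notch3 was at 0 in the Gdf10 fibroblasts of both libraries and Rgs5 in those of the old library. None of the 6 mesothelial markers was seen in old Gdf10 fibroblasts, while in old other fibroblasts Wt1 and Krt19 brought their sum to 54.3 CPM. The 6 lymphatic endothelial markers summed to 296 CPM in old and 242 CPM in young Gdf10 fibroblasts, to 202 CPM in old and 199 CPM in young other fibroblasts, and to 102 CPM in old and 45.2 CPM in young endothelial barcodes, while Prox1 and Flt4 were at 0 in the Gdf10 fibroblasts of both libraries. The 5 Schwann cell markers summed to 49.3 CPM in old and 106 CPM in young Gdf10 fibroblasts, against 23.9 CPM in old and 42.0 CPM in young other fibroblasts, with Sox10 at 0 in all of these. A UMI of these 5 lay in 43.8% of young Gdf10 fibroblasts. The part of such cells in the results was not tested. Macrophage markers summed to 143 CPM in old and 7.79 CPM in young Gdf10 fibroblasts, and erythroid markers to 551 CPM in old and 26.5 CPM in young ones.

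Gdf10 fibroblasts were a smaller share of fibroblasts in the old library, 10.2% (56 of 548, exact Clopper-Pearson 95% interval 7.81 to 13.1%), than in the young library, 37.4% (89 of 238, 31.2 to 43.9%). Fibroblasts as a whole took similar shares of all barcodes, 16.1% (14.9 to 17.4%) in the old and 17.4% (15.4 to 19.5%) in the young library. Barcodes of at least 3000 UMIs were also thinned to 3000 before the rule was applied, and shallower barcodes were left out. There 21 of 451 old fibroblasts (4.66%, 2.91 to 7.03%) and 77 of 225 young fibroblasts (34.2%, 28.0 to 40.8%) were Gdf10 fibroblasts. Of the unthinned Gdf10 fibroblasts, 30 of 56 old and 9 of 89 young ones were shallower than that. Of the unthinned other fibroblasts, 57 of 492 old and 5 of 149 young ones were. This thinning was chosen after seeing the data. When barcodes with at least 2 markers of another class were left out, the shares were 16.5% in the old and 51.4% in the young library.

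**Figure D1:**
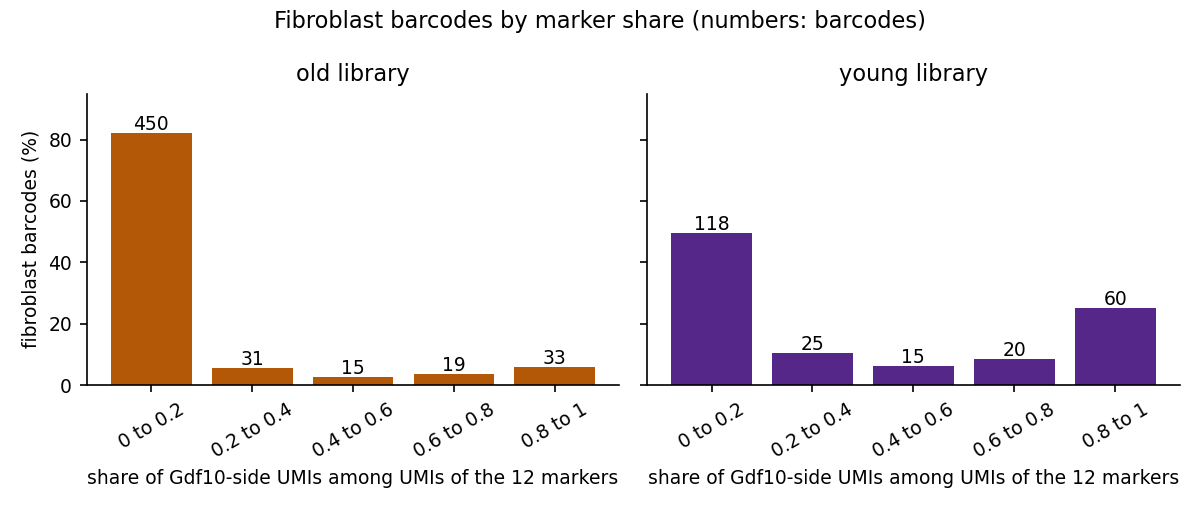
Percent of fibroblast barcodes (y axis) by the share of the 6 Gdf10-side genes among all UMIs of the 12 marker genes (x axis), in the old library (left, 548 barcodes) and the young library (right, 238 barcodes). The numbers above the bars count barcodes: 450 old and 118 young fibroblasts lay at a share of at most 0.2, and 33 old and 60 young ones above 0.8.

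The cells were selected on these UMI sums, so the levels of the 12 genes describe the choice, and they ran from clear to marginal. The median Gdf10 fibroblast carried 8 UMIs of its own side's genes and 1 of the opposite side's in the old library, and 27 and 4 UMIs in the young library. Other fibroblasts carried a median of 0 and 32.5 UMIs of these sides in the old library, and 2 and 50 in the young library. Just inside the cut, 8 old and 5 young barcodes had 1 UMI more of the Gdf10 side, and just outside it 9 old barcodes and 1 young barcode had equal sums. A lead of at least 10 UMIs was held by 17 of the 56 old and 68 of the 89 young Gdf10 fibroblasts. At least 3 of the 6 genes were seen in 38 of 56 old and 85 of 89 young Gdf10 fibroblasts. The old cells were therefore both fewer and assigned on fewer UMIs.

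Each of the 12 genes was then measured with the fibroblasts assigned by the remaining 11, so that a gene's own UMIs did not place its cells. All 6 genes of the Gdf10 side remained higher in the cells so assigned, and all 6 opposite genes lower, in both libraries. The 12 genes were chosen as opposite sets with earlier results of these data known, so these directions give no independent support. Assignment without Dact2 still gave 56 old and 89 young Gdf10 fibroblasts. Without Igfbp5 it gave 71 old and 110 young ones, and without Gas1 45 old and 79 young ones. Gdf10 (chromosome 14, 33923587 to 33937983, GRCm38) had 454 CPM in old Gdf10 fibroblasts and 31.0 CPM in old other fibroblasts, a log2 ratio of 3.87. In the young library it had 914 CPM in Gdf10 fibroblasts and 119 CPM in other fibroblasts, a log2 ratio of 2.94. The contrast was widest for Fbln7 (chromosome 2, 128862981 to 128897034), whose log2 ratio was 5.65 in the old and 3.87 in the young library. For Mfap4 (chromosome 11, 61485431 to 61488900) the log2 ratios were 2.83 old and 2.90 young, and for F3 (chromosome 3, 121723537 to 121735048) 3.79 old and 2.73 young. Angptl1 (chromosome 1, 156838562 to 156861078) gave 3.47 old and 2.42 young, and Gas1 (chromosome 13, 60174405 to 60177365) 2.67 old and 2.51 young. Among the opposite genes, Dact2 had the lowest ratios, -4.60 old and -4.97 young. In the larger groups assigned without it, Igfbp5 stood at 555 CPM in old and 972 CPM in young Gdf10 fibroblasts. Other fibroblasts there held 4284 CPM old and 4692 CPM young. Under the full rule Igfbp5 stood at 125 CPM in old and 383 CPM in young Gdf10 fibroblasts.

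**Figure D2:**
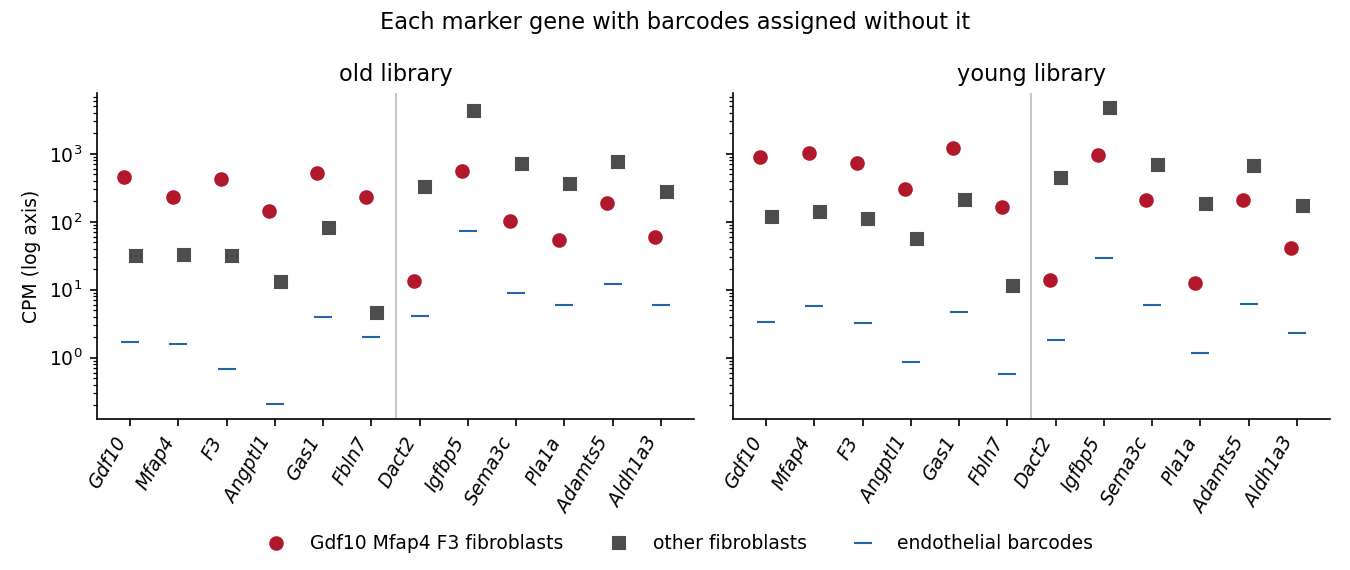
CPM (y axis, log scale) of the 12 marker genes (x axis) in Gdf10 fibroblasts (circles), other fibroblasts (squares) and endothelial barcodes (dashes), in the old library (left) and the young library (right), with the fibroblasts assigned without the gene shown. The circles lie above the squares for the 6 genes left of the line and under them for the 6 genes right of it in both libraries, and the dashes of the first 6 genes lie between 0.205 and 5.71 CPM.

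Within the Gdf10 fibroblasts the 6 genes were not seen equally often. With each barcode thinned to 3000 UMIs, which left out 30 of 56 old and 9 of 89 young cells, Gas1 was seen in 65.4% of old and 92.5% of young cells and Gdf10 in 57.7% of old and 78.8% of young cells. Mfap4 was seen in 23.1% of 26 old cells (6 cells, exact interval 8.97 to 43.6%) and in 65.0% of 80 young cells (53.5 to 75.3%). Without thinning these shares were 33.9% old and 73.0% young for Mfap4, with a median depth of 2875.5 old and 7043 young UMIs. In endothelial barcodes, which should lack the gene, 0.949% of old and 5.34% of young barcodes held an Mfap4 UMI, at median depths of 5106 old and 7423.5 young UMIs. Since these genes chose the cells, the shares describe them and are not a comparison.

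The main comparison set the Gdf10 fibroblasts against the other fibroblasts of the same library, over 4870 genes with at least 50 UMIs in the fibroblasts of each library. Genes at least 2-fold higher in both libraries numbered 95 (1.95% of genes), and 110 (2.26%) were at least 2-fold lower in both. The genes higher in Gdf10 fibroblasts included those for secreted Wnt antagonists, TGF-beta-induced matrix proteins, chemokines, complement proteins and detoxifying enzymes. Those lower included genes of the progenitor-like adventitial fibroblast. The median log2 ratio over all genes was -0.01 in the old and 0.01 in the young library. When barcodes with at least 2 markers of another class were left out, which left 15 old and 37 young Gdf10 fibroblasts, 22 genes were higher and 30 lower in both libraries.

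Wisp2 (chromosome 2, 163820861 to 163833146), a secreted protein of the connective tissue growth factor family and a target of Wnt signalling, ranked first. It had 72 UMIs (323 CPM) in the 56 old Gdf10 fibroblasts and 58 UMIs in the 492 old other fibroblasts, a log2 ratio of 3.87 (95% interval 3.35 to 4.40), or 2.15 with an interval that included 0 when barcodes with at least 2 markers of another class were left out. In the young library it had 111 CPM in Gdf10 fibroblasts and 3.56 CPM in other fibroblasts, a log2 ratio of 4.96 (3.67 to 6.63). Its UMIs lay in 17 of 56 old and 21 of 89 young Gdf10 fibroblasts, so most of these cells showed none, and old smooth muscle barcodes held 174 CPM of it. Inmt (chromosome 6, 55170626 to 55175043), whose promoter is printed above, had 681 CPM in Gdf10 fibroblasts against 47.9 CPM in other fibroblasts of the old library, a log2 ratio of 3.83 (3.48 to 4.18). The young values were 352 CPM in Gdf10 fibroblasts against 42.0 CPM in other fibroblasts, a log2 ratio of 3.07 (2.65 to 3.51). Inmt was seen in 33 old and 48 young Gdf10 fibroblasts. Cygb (chromosome 11, 116645595 to 116654313), cytoglobin, an oxygen-binding protein of fibroblasts, was seen in all 56 old and all 89 young Gdf10 fibroblasts. It stood at 1537 CPM in old Gdf10 fibroblasts against 256 CPM in old other fibroblasts, and at 1555 CPM in young Gdf10 fibroblasts against 383 CPM in young other fibroblasts (log2 ratios 2.58 old and 2.02 young). Endothelial barcodes held 2.73 CPM of Inmt and 6.90 CPM of Cygb in the old library, and 1.45 CPM of Inmt and 4.16 CPM of Cygb in the young library.

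**Figure D3:**
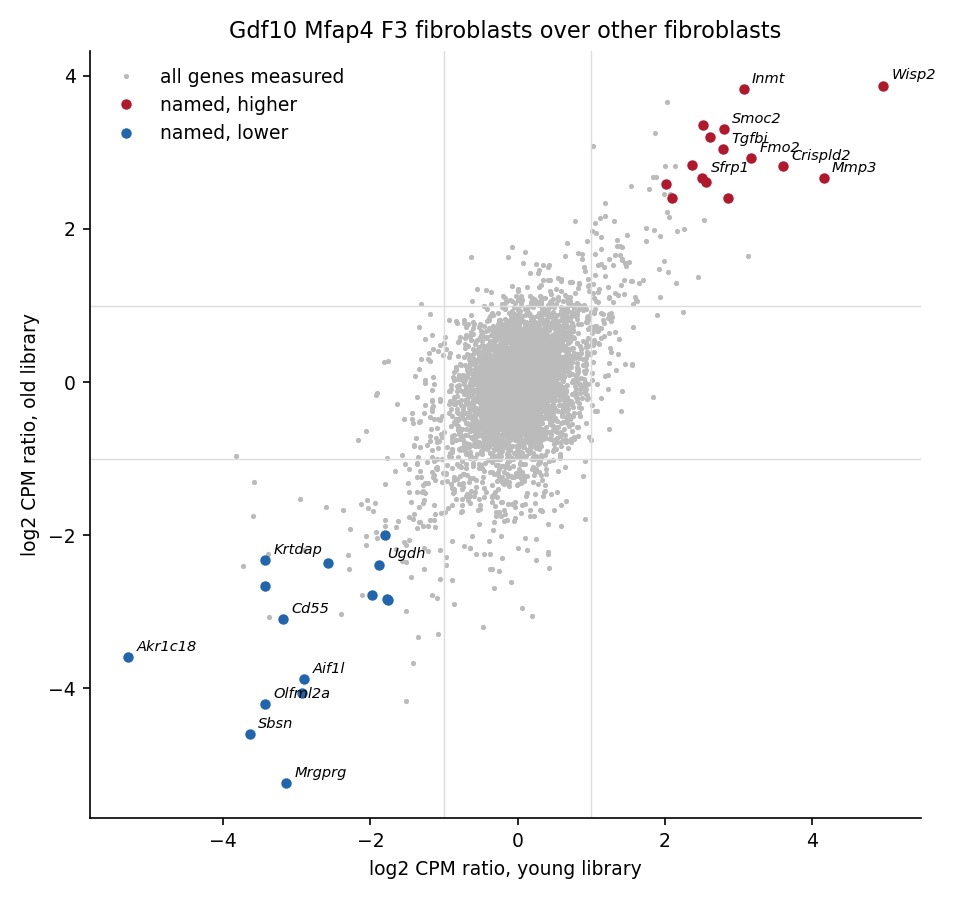
Log2 CPM ratio of Gdf10 fibroblasts over other fibroblasts in the young library (x axis) and the old library (y axis) for each gene with at least 50 UMIs in the fibroblasts of each library, marker genes of the rule left out. The 15 named genes at the upper right were higher and the 15 at the lower left lower in both libraries, among them Wisp2 at 3.87 old and 4.96 young, and grey lines mark 2-fold.

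Secreted Wnt antagonists were higher as a group. Gene lists were read over genes with at least 20 UMIs in the fibroblasts of each library, of which 2.23% of 7864 were at least 2-fold higher in both libraries and 2.10% at least 2-fold lower, with a median log2 ratio of 0.02 in each library. In these lists and in the counts over all genes above, 0 UMIs in Gdf10 fibroblasts were set at 3 counts. In the old library that was 13.4 CPM, so genes scarce in other fibroblasts could not be called at least 2-fold lower. Their ratios could also lie above 0. Of 8 measured Wnt antagonists and targets, of 21 listed, 6 were at least 2-fold higher in both libraries and 0 lower, and their median log2 ratio was 1.69 in the old library and 1.21 in the young library. Sfrp4, a secreted frizzled-related protein that binds Wnt ligands, reached 3159 CPM in old Gdf10 fibroblasts against 926 CPM in old other fibroblasts, and 1803 CPM in young Gdf10 fibroblasts against 706 CPM in young other fibroblasts. Its relative Sfrp2 had 1093 CPM in old Gdf10 fibroblasts against 242 CPM in old other fibroblasts, a log2 ratio of 2.17, and 672 CPM in young Gdf10 fibroblasts against 295 CPM in young other fibroblasts, a log2 ratio of 1.19. Sfrp1, of the same family, was higher by 2.67 old and 2.50 young on the log2 scale, but endothelial barcodes held more of it, 1383 CPM old and 1602 CPM young. Dkk2 and Dkk3, of the dickkopf family of Wnt modulators, had log2 ratios of 1.56 and 1.61 in the old and 1.04 and 1.23 in the young library, where Dkk2 rested on 5 old and 15 young UMIs. Tcf7l1 and Tcf7l2, transcription factors of the pathway, had ratios within 0.36 of 0.

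Wnt ligands and receptors were mixed, with 3 of 12 measured genes at least 2-fold higher in both libraries and 1 lower. The receptor Fzd4 had 219.6 CPM in old Gdf10 fibroblasts against 55.5 CPM in old other fibroblasts, and 282 CPM in young Gdf10 fibroblasts against 78.3 CPM in young other fibroblasts. The ligand Wnt5a, which acts largely outside the beta-catenin route, had log2 ratios of 1.90 (1.10 to 2.65) old and 1.94 (1.54 to 2.34) young, and the receptor Fzd1 1.53 old and 1.08 young. The gene lower was the ligand Wnt11, on 1 old and 9 young UMIs in Gdf10 fibroblasts. Wnt2 parted the libraries, with a log2 ratio of -2.95 (-5.23 to -1.39) in the old and 0.06 (-0.30 to 0.40) in the young library.

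Targets of BMP and TGF-beta signalling were also higher. Of 9 measured, 4 were at least 2-fold higher in both libraries and 0 lower, with a median log2 ratio of 0.97 in the old library and 1.10 in the young library. Tgfbi (chromosome 13, 56609523 to 56639562), a matrix protein named for its induction by TGF-beta, had 596 CPM in old Gdf10 fibroblasts against 72.6 CPM in old other fibroblasts, a log2 ratio of 3.04 (2.71 to 3.36). Young Gdf10 fibroblasts had 1088 CPM of Tgfbi against 158 CPM in young other fibroblasts, a log2 ratio of 2.78 (2.56 to 3.01), and it was seen in 41 of 56 old and 83 of 89 young cells. Ctgf, connective tissue growth factor, had log2 ratios of 1.82 old and 2.42 young, and Id2, an inhibitor of helix-loop-helix factors, 1.48 old and 1.91 young. Endothelial barcodes also carried Id2, at 293 CPM old and 328 CPM young.

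Among the ligands of that superfamily the direction differed by gene. Bmp4 was higher, at 188 CPM in old Gdf10 fibroblasts against 44.5 CPM in old other fibroblasts and 81.0 CPM in young Gdf10 fibroblasts against 39.1 CPM in young other fibroblasts, with 546 CPM in old and 829 CPM in young endothelial barcodes. Bmp3, the closest relative of Gdf10, was lower: Gdf10 fibroblasts held 2 old and 3 young UMIs of it, against 197 old and 68 young UMIs in other fibroblasts, log2 ratios of -3.06 (-6.12 to -1.19) and -3.37 (-5.68 to -1.76). Bmp2 was lower with log2 ratios of -1.12 (-3.43 to 0.48) old and -1.71 (-3.23 to -0.47) young. Of 14 receptors and Smads, none was at least 2-fold higher or lower in both libraries, and of 14 inhibitors and binders only Bmper, a secreted BMP binder, was, with log2 ratios of 1.63 old and 1.97 young on 5 old and 25 young UMIs.

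Matrix genes were split by family. Of 27 proteoglycans and matrix glycoproteins, 8 were at least 2-fold higher in both libraries and 0 lower. Cilp, a secreted cartilage intermediate layer protein that binds TGF-beta, had 20 old and 137 young UMIs in Gdf10 fibroblasts against 2 old and 10 young UMIs in other fibroblasts, log2 ratios of 6.88 (4.84 to 10.02) and 4.91. Sparcl1, a secreted SPARC relative, had log2 ratios of 4.56 old and 3.95 young, and Smoc2 (chromosome 17, 14279506 to 14404790), a secreted calcium-binding matrix protein, 3.30 old and 2.80 young. Smoc2 stood at 479 CPM in old Gdf10 fibroblasts against 48.6 CPM in old other fibroblasts, and at 529.8 CPM in young Gdf10 fibroblasts against 76.1 CPM in young other fibroblasts. The remaining 5 were Matn2 (a matrilin), Podn (podocan), Srpx, Gpc3 (a glypican) and Bgn (biglycan), with log2 ratios between 1.01 and 2.91. Bgn was the most abundant of them, at 1667 CPM in old and 2654 CPM in young Gdf10 fibroblasts, and endothelial barcodes held 2413 CPM old and 3559 CPM young.

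Of 19 collagen and collagen-processing genes, 3 were at least 2-fold higher in both libraries and 0 lower. Pcolce, an enhancer of procollagen processing, had 1479 CPM in old Gdf10 fibroblasts against 414 CPM in old other fibroblasts, and 2305 CPM in young Gdf10 fibroblasts against 692 CPM in young other fibroblasts. Col8a1, a short-chain collagen of vessel walls, and Plod2, a lysyl hydroxylase for collagen cross-links, were the others, with log2 ratios of 1.37 and 1.57 old and 2.45 and 1.51 young. Elastic fibre genes were split, 2 of 16 higher and 4 lower. Fbln1, fibulin-1, was higher by 2.41 old and 2.09 young on the log2 scale. Lox, lysyl oxidase, which cross-links elastin and collagen, was higher by 3.20 old and 2.61 young. In barcodes thinned as above, Lox was seen in 15.4% of 26 old and 28.75% of 80 young Gdf10 fibroblasts. It was seen in 5.06% of old and 6.25% of young other fibroblasts, but in 24.2% of old and 42.5% of young endothelial barcodes. Fbn1, the microfibril scaffold fibrillin-1, was lower, at 197 CPM in old Gdf10 fibroblasts against 890.2 CPM in old other fibroblasts, and 500.2 CPM in young Gdf10 fibroblasts against 1573 CPM in young other fibroblasts. Mfap5, a microfibril protein, Emilin2 and Efemp1 (fibulin-3) were the other 3, and Efemp1 had log2 ratios of -1.31 old and -3.58 young. None of 13 basement membrane genes was 2-fold apart in both libraries.

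Matrix-degrading enzymes and their inhibitors included 3 of 23 genes at least 2-fold higher in both libraries and 0 lower. Mmp3, stromelysin-1, had 255 CPM in old Gdf10 fibroblasts against 40.3 CPM in old other fibroblasts, and 190.1 CPM in young Gdf10 fibroblasts against 10.7 CPM in young other fibroblasts. It was seen in 21 old and 21 young Gdf10 fibroblasts, and 1 young barcode held 32 of its 122 UMIs. Ctsk, the collagen-degrading cathepsin K, had log2 ratios of 2.14 old and 1.12 young, and Timp1, a tissue inhibitor of metalloproteinases, 1.15 old and 1.44 young.

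Chemokines and their receptors went both ways, 5 of 16 measured higher and 2 lower by 2-fold in both libraries. Cxcl12, which retains stem and immune cells in tissues, had 1196 CPM in old Gdf10 fibroblasts against 208 CPM in old other fibroblasts, a log2 ratio of 2.52 (2.31 to 2.74). Young Gdf10 fibroblasts had 846 CPM of Cxcl12 against 245 CPM in young other fibroblasts, a log2 ratio of 1.79 (1.59 to 1.98). Ackr3, the receptor that scavenges Cxcl12, was lower in the same cells, at 139 CPM in old Gdf10 fibroblasts against 494 CPM in old other fibroblasts, and 449 CPM in young Gdf10 fibroblasts against 1132 CPM in young other fibroblasts. Ccl19, a ligand that draws dendritic and T cells, had log2 ratios of 2.72 old and 2.32 young, and more than 10% of its 3′ sequence is shared with other genes. The other genes higher were Il1r1, the interleukin-1 receptor, Tnfsf13b, the B cell survival factor BAFF, and Ccl8, with log2 ratios between 1.21 and 2.52. Ccl2, which draws monocytes, was lower, with log2 ratios of -1.54 old and -2.05 young.

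The complement list included 4 of 13 measured genes at least 2-fold higher and 1 lower. C4b, C2 and Cfb, components of the classical and alternative pathways, had log2 ratios from 1.33 to 3.56 across both libraries, and each shares more than 10% of its 3′ sequence with another gene. Cd55, which shields cells from complement, was the gene lower, at 58.3 CPM in old Gdf10 fibroblasts against 498 CPM in old other fibroblasts and 62.3 CPM in young Gdf10 fibroblasts against 566 CPM in young other fibroblasts, and it too shares 3′ sequence. C3 was near even, with log2 ratios of 0.35 old and -0.13 young.

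Growth factors were likewise split. Igf1, insulin-like growth factor 1, was the only one of 7 IGF genes at least 2-fold higher in both libraries, at 139 CPM in old Gdf10 fibroblasts against 19.4 CPM in old other fibroblasts, and 246 CPM in young Gdf10 fibroblasts against 47.7 CPM in young other fibroblasts. Of 21 angiogenic and other growth factors 3 were higher, namely Fgf7 (keratinocyte growth factor), Mdk (midkine) and Vegfc, and 4 were lower, namely Nov, Pdgfc, Fgf2 and Vegfa. Fgf7 had log2 ratios of 1.98 (1.14 to 2.75) old and 2.16 (1.48 to 2.86) young, and Mdk 3.48 (2.43 to 4.52) old and 2.53 (1.61 to 3.53) young. Vegfc rested on 5 old and 13 young UMIs. Fgf2 was the lower gene with most UMIs in other fibroblasts, with log2 ratios of -1.91 (-3.54 to -0.66) old and -1.37 (-2.18 to -0.64) young. Gas6, a ligand of the receptor Axl that bridges dying cells to phagocytes, was higher by 2.40 old and 2.85 young on the log2 scale, while Axl had log2 ratios of -0.87 old and -1.09 young. Among 11 guidance genes, Slit2, a secreted repellent, and the ephrin receptor Epha3 were higher, with log2 ratios of 1.71 and 1.60 old and 1.57 and 1.42 young. Robo1, a receptor for Slit proteins, was lower, with -1.80 (-7.14 to 0.76) old and -1.55 (-3.26 to -0.18) young.

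Enzymes that handle retinoids, xenobiotics and lipids supplied more of the genes higher in Gdf10 fibroblasts. Of 8 retinoic acid genes 3 were at least 2-fold higher in both libraries and 0 lower. They included Dhrs3, which turns retinal back to retinol, with log2 ratios of 2.11 old and 2.53 young, and Rbp4, on 4 old and 20 young UMIs. Of 35 antioxidant and xenobiotic genes 5 were higher and 0 lower. Gpx3, the secreted glutathione peroxidase, had 1447 CPM in old Gdf10 fibroblasts against 226 CPM in old other fibroblasts, and 1187 CPM in young Gdf10 fibroblasts against 332 CPM in young other fibroblasts. The flavin-containing monooxygenases Fmo1 and Fmo2 had log2 ratios of 1.65 and 2.93 in the old and 3.13 and 3.17 in the young library. In barcodes thinned as above, Fmo2 was seen in 30.8% of 26 old and 46.25% of 80 young Gdf10 fibroblasts. It was seen in 6.44% of old and 9.72% of young other fibroblasts, but in 43.7% of old and 30.4% of young endothelial barcodes. Gclc, which makes glutathione, and Adh1, an alcohol dehydrogenase, completed the 5.

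Of 17 adipogenic and lipid-handling genes, 4 were at least 2-fold higher and 2 lower. Apod, the lipid carrier apolipoprotein D, had log2 ratios of 2.56 (2.05 to 3.06) old and 1.54 (1.01 to 2.07) young, and the transporter Abca8a 2.16 old and 2.05 young. The 2 cyclooxygenases parted: Ptgs2 was higher, with log2 ratios of 1.54 old and 1.13 young, and Ptgs1 lower, with -2.79 old and -1.98 young. Fabp4, a fatty acid carrier of fat and endothelium, was higher on 5 old and 18 young UMIs, with 43.0 CPM in old and 46.1 CPM in young endothelial barcodes, and Plpp3, a lipid phosphatase, had log2 ratios of -1.13 old and -1.09 young.

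Of 35 transcription factors measured, 3 were at least 2-fold higher in both libraries and 0 lower. They were Nr2f2 and Nr2f1, the COUP-TF nuclear receptors, and Hoxc8, a homeobox gene of the trunk. Nr2f2 had 125 CPM in old Gdf10 fibroblasts against 31.2 CPM in old other fibroblasts, and 126 CPM in young Gdf10 fibroblasts against 37.7 CPM in young other fibroblasts. Hoxc8 had log2 ratios of 1.73 (0.94 to 2.46) old and 1.13 (0.46 to 1.80) young. Meox2, a mesoderm homeobox factor, had log2 ratios of 0.42 (-1.27 to 1.75) old and 2.50 (1.77 to 3.29) young.

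Genes of the progenitor-like adventitial fibroblast were lower. Of 18 measured, 11 were at least 2-fold lower in both libraries and 0 higher, with a median log2 ratio of -1.27 in the old library and -1.29 in the young library. Pi16, a peptidase inhibitor that marks these cells, stood at 2819 CPM in old Gdf10 fibroblasts against 7009 CPM in old other fibroblasts, and at 5550.2 CPM in young Gdf10 fibroblasts against 13255 CPM in young other fibroblasts. Dpp4, a surface peptidase of the same cells, had log2 ratios of -2.26 (-3.71 to -1.12) old and -2.30 (-3.21 to -1.51) young. Thy1 and Cd248, surface glycoproteins of mesenchymal cells, had log2 ratios of -1.58 and -1.54 old and -1.94 and -1.27 young. Ly6a, which encodes Sca-1, did not follow them: it stood at 2979.9 CPM in old Gdf10 fibroblasts against 2943 CPM in old other fibroblasts, and at 3017 CPM in young Gdf10 fibroblasts against 3237 CPM in young other fibroblasts.

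Outside that list, the lowest-ranked genes were close to absent from Gdf10 fibroblasts. Akr1c18 (chromosome 13, 4132615 to 4150654), a steroid dehydrogenase that inactivates progesterone, had 0 UMIs in all 145 Gdf10 fibroblasts, against 427 UMIs in old and 257 in young other fibroblasts. At a floor of 3 counts per library for Gdf10 fibroblasts, its log2 ratio was -3.59 old and -5.29 young. Krtdap, a secreted keratinocyte protein, also had 0 UMIs in them, against 177 old and 71 young UMIs in other fibroblasts. Mrgprg, a G protein-coupled receptor of the Mas-related family, had 1 old and 0 young UMIs against 444 old and 58 young UMIs in other fibroblasts. Sbsn, suprabasin, had 2 old and 10 young UMIs against 570 old and 272 young UMIs, and shares 3′ sequence with another gene. Ugdh, which makes the sugar precursor of hyaluronan and proteoglycans, was the most abundant of them, at 233 CPM in old Gdf10 fibroblasts against 1217 CPM in old other fibroblasts, and 330.3 CPM in young Gdf10 fibroblasts against 1223 CPM in young other fibroblasts. The remaining genes named in this direction, Aif1l, Olfml2a, Basp1, Efhd1, Prss23, Arl4d, Ptgs1, Smpd3 and Creb5, had log2 ratios between -4.21 and -1.76. When barcodes with at least 2 markers of another class were left out, the intervals of Krtdap in both libraries, of Mrgprg in the young library and of Aif1l and Arl4d in the old library included 0.

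**Figure D4:**
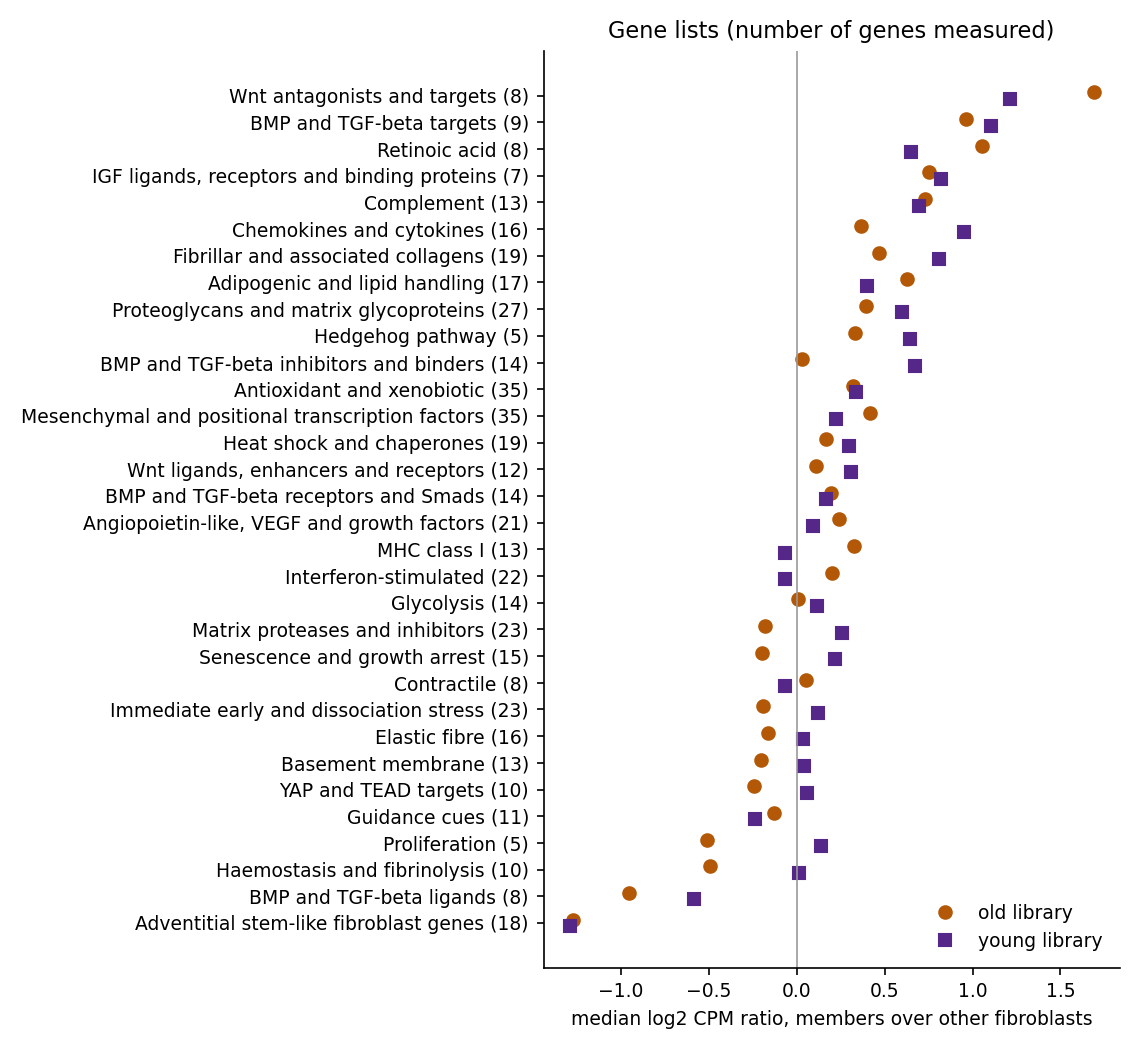
Median log2 CPM ratio of Gdf10 fibroblasts over other fibroblasts (x axis) for each gene list with at least 5 genes measured (y axis, number of genes measured in brackets), in the old library (circles) and the young library (squares). Wnt antagonists and targets lie farthest right, at 1.69 old and 1.21 young, and adventitial stem-like genes farthest left, at -1.27 old and -1.29 young.

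Several lists held no gene 2-fold apart in both libraries. None of 19 heat shock, 14 glycolysis, 13 MHC class I, 22 interferon-stimulated, 23 immediate early, 8 contractile or 5 hedgehog genes was at least 2-fold apart in both libraries in the same direction. The 5 hedgehog genes had a median log2 ratio of 0.33 in the old and 0.65 in the young library, with 3 above 0 in the old and all 5 in the young library. The medians of the others lay between -0.19 and 0.33 across both libraries. Jun and Fosb, immediate early genes that dissociation also induces, had log2 ratios of 0.79 and 1.45 in the old and 0.95 and 0.91 in the young library, while Klf4 had -1.67 old and -0.54 young.

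Levels were also read across all fibroblasts by the share of Gdf10-side UMIs, to show how they lay around the cut. In the old library Cygb had 231, 497, 561, 1680.0 and 1656 CPM in fibroblasts whose share was at most 0.2, over 0.2 to 0.4, over 0.4 to 0.6, over 0.6 to 0.8 and over 0.8, and in the young library 295, 708, 1200.4, 1144 and 1726 CPM. Cd55 ran the other way, with 539, 135, 85.4, 60.5 and 47.3 CPM over the same steps in the old and 656, 195, 85.7, 52.3 and 67.3 CPM in the young library. Tgfbi had 62.8, 130.2, 317, 666 and 615 CPM in the old and 104, 363, 695, 974 and 1159.6 CPM in the young library. Wisp2 did not follow the steps evenly: it had 4.21, 57.9, 549, 90.8 and 449.5 CPM in the old library, where the middle step held 15 barcodes. Barcodes in the middle steps are few (31, 15 and 19 old, 25, 15 and 20 young) and can hold RNA of both kinds of fibroblast, which was not tested.

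Within Gdf10 fibroblasts, the old library was set against the young library over 2551 genes with at least 50 UMIs in both together. At least 2-fold higher in the old cells were 47 genes (1.84%), and 184 (7.21%) were at least 2-fold lower. Ribosomal protein genes took 23.1% of UMIs in old and 15.4% in young Gdf10 fibroblasts, and the split was 83 higher and 122 lower when CPM was taken without mitochondrial, ribosomal protein and haemoglobin genes. That scaling moved the median log2 ratio of all genes to 0.06, against -0.09 without it. The genes higher in the old cells included those for some chemokines, the complement protein C4b, an acute-phase protease inhibitor and a lubricating proteoglycan, and those lower included a Wnt ligand and an IGF-binding protein.

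Prg4 (chromosome 1, 150449412 to 150466165), the proteoglycan lubricin, ranked first. It had 61 UMIs (273 CPM) in old and 4 UMIs (6.23 CPM) in young Gdf10 fibroblasts, a log2 ratio of 5.45 (4.03 to 7.38). The old UMIs lay in 9 of 56 barcodes, with up to 21 in 1 barcode, so few cells carried it. Ccl7, a monocyte-attracting chemokine, had 663 CPM in old and 77.9 CPM in young Gdf10 fibroblasts, a log2 ratio of 3.09 (2.62 to 3.58). It lay in 13 old and 6 young barcodes, and 1 young barcode held 43 of 50 UMIs. Efemp1, fibulin-3, had 215 CPM in old and 37.4 CPM in young Gdf10 fibroblasts, a log2 ratio of 2.52 (1.79 to 3.30), and was seen in 23 of 56 old and 13 of 89 young cells. Thinned to 3000 UMIs, Efemp1 was seen in 13 of 26 old and 6 of 80 young Gdf10 fibroblasts, and in 22.3% of old and 15.9% of young endothelial barcodes.

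Figf, which encodes the lymphatic growth factor VEGF-D, had 287 CPM in old and 77.9 CPM in young Gdf10 fibroblasts, a log2 ratio of 1.88 (1.32 to 2.44), seen in 27 old and 30 young cells. Serpina3n, an acute-phase protease inhibitor, had a log2 ratio of 1.67 (1.17 to 2.18) and C4b had 193 CPM in old and 48.3 CPM in young Gdf10 fibroblasts (interval of the log2 ratio 1.30 to 2.71), both also higher in old other fibroblasts, by 0.88 and 1.15. Plac8 had a log2 ratio of 1.32 (0.95 to 1.69), and Cp, the copper carrier ceruloplasmin, 1.72 (0.93 to 2.52), with 249 CPM in old and 308 CPM in young endothelial barcodes. Mt2, a metallothionein, had 1604 CPM in old and 620.2 CPM in young Gdf10 fibroblasts, and 1 old barcode held 107 of 358 UMIs.

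Some of these genes rested on few barcodes. Tnfaip6, a hyaluronan-binding protein of inflamed tissue, had a log2 ratio of 2.36, but 35 of its 50 old UMIs lay in 1 barcode, and the ratio was 0.25 without the barcodes that held at least 4 endothelial markers. Ccl19 had a log2 ratio of 1.69, or 0.76 as a mean of CPM per barcode. Wisp2 had 323 CPM in old and 111 CPM in young Gdf10 fibroblasts, a log2 ratio of 1.54 (1.05 to 2.04). When barcodes with at least 2 markers of another class were left out, the log2 ratio became -0.54 for Wisp2, -0.35 for Mt2, -0.66 for Ccl19 and 0.34 for Ccl7. Efemp1 there had 2.60, Figf 1.47, C4b 1.92 and Cp 4.07, all with intervals above 0. The intervals of Prg4 at 3.92, Tnfaip6 at 1.34, Serpina3n at 1.56 and Plac8 at 0.68 included 0 there, as did those of Wisp2, Mt2, Ccl19 and Ccl7.

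Among the genes lower in the old cells, Wnt2 (chromosome 6, 17988940 to 18030585), a Wnt ligand of mesenchymal cells, ranked first. It had 3 UMIs in 3 old and 103 UMIs in 31 young Gdf10 fibroblasts, a log2 ratio of -3.58 (-5.88 to -1.99), and 1 young barcode held 27 of them. The ratio was -0.40, with an interval that included 0, when barcodes with at least 2 markers of another class were left out. Igfbp6 (chromosome 15, 102144362 to 102149511), which binds IGF2 most tightly, was abundant, with 1071 CPM in old and 3112 CPM in young Gdf10 fibroblasts, a log2 ratio of -1.54 (-1.74 to -1.34). It was seen in 43 of 56 old and 80 of 89 young cells, and 1 young barcode held 202 of 1997 UMIs. Islr, a marker of mesenchymal stromal cells, had a log2 ratio of -1.88 (-2.33 to -1.46), Errfi1, a feedback inhibitor of the EGF receptor, -2.05 (-2.73 to -1.44), and Akap12, a kinase anchor, -2.01 (-2.73 to -1.37).

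The other genes named in this direction were also lower in old other fibroblasts. Nme2, Gstp1, Bloc1s1 and Plac9b had log2 ratios between -3.87 and -2.28 in Gdf10 fibroblasts and between -3.36 and -2.11 in other fibroblasts, and their counts are uncertain, since over 10% of the 3′ sequence of each is found in other genes too. When barcodes with at least 2 markers of another class were left out, these log2 ratios in Gdf10 fibroblasts were -0.17 for Nme2, -1.17 for Gstp1, -2.42 for Bloc1s1 and -1.57 for Plac9b, and their intervals included 0. Myadm, a membrane protein, had -3.08 in Gdf10 fibroblasts and -2.04 in other fibroblasts. Ptprb, an endothelial phosphatase, had -1.71 in Gdf10 fibroblasts and -1.46 in other fibroblasts, with 2147 CPM in old and 2527 CPM in young endothelial barcodes.

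The age ratio of Gdf10 fibroblasts was then set against that of other fibroblasts of the same animals. Of 1631 genes with at least 20 UMIs in each of the 4 sums, the ratio differed by at least 1 on the log2 scale upward in 35 (2.15%) and downward in 7 (0.429%). Igfbp6 ranked first downward: its old over young log2 ratio was -1.54 in Gdf10 fibroblasts and 0.06 in other fibroblasts, a difference of -1.60 (-1.80 to -1.40). Other fibroblasts held 3304 CPM of Igfbp6 old and 3177 CPM young. Efemp1 differed by 2.27 (1.55 to 2.99), with other fibroblasts at 532 CPM old and 447 CPM young. Ccl7 differed by 2.06 (1.56 to 2.56), Tnfaip6 by 2.03 (1.32 to 2.74) and Figf by 1.77 (1.15 to 2.39). When barcodes with at least 2 markers of another class were left out, the difference was -0.61 for Ccl7, 1.46 for Efemp1, 1.09 for Tnfaip6 and 0.85 for Figf, and each interval included 0. With a lead of at least 2 UMIs required of a Gdf10 fibroblast, Tnfaip6 differed by 0.45, and without the barcodes that held at least 4 endothelial markers by 0.16, both with intervals that included 0.

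Next to it, Thbd, the anticoagulant thrombomodulin, had an old over young log2 ratio of -1.43 in Gdf10 fibroblasts and 0.10 in other fibroblasts, a difference of -1.53 (-2.10 to -0.97). It stood at 139 CPM in old and 376 CPM in young Gdf10 fibroblasts, and at 235 CPM in old and 224 CPM in young endothelial barcodes. Klf4, a transcription factor that flow and stress induce, differed by -1.13 (-1.48 to -0.78), and Errfi1 by -1.40 (-2.03 to -0.76). These intervals cover counting error, and the difference between the ages in each kind of cell still rests on the same 2 animals.

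**Figure D5:**
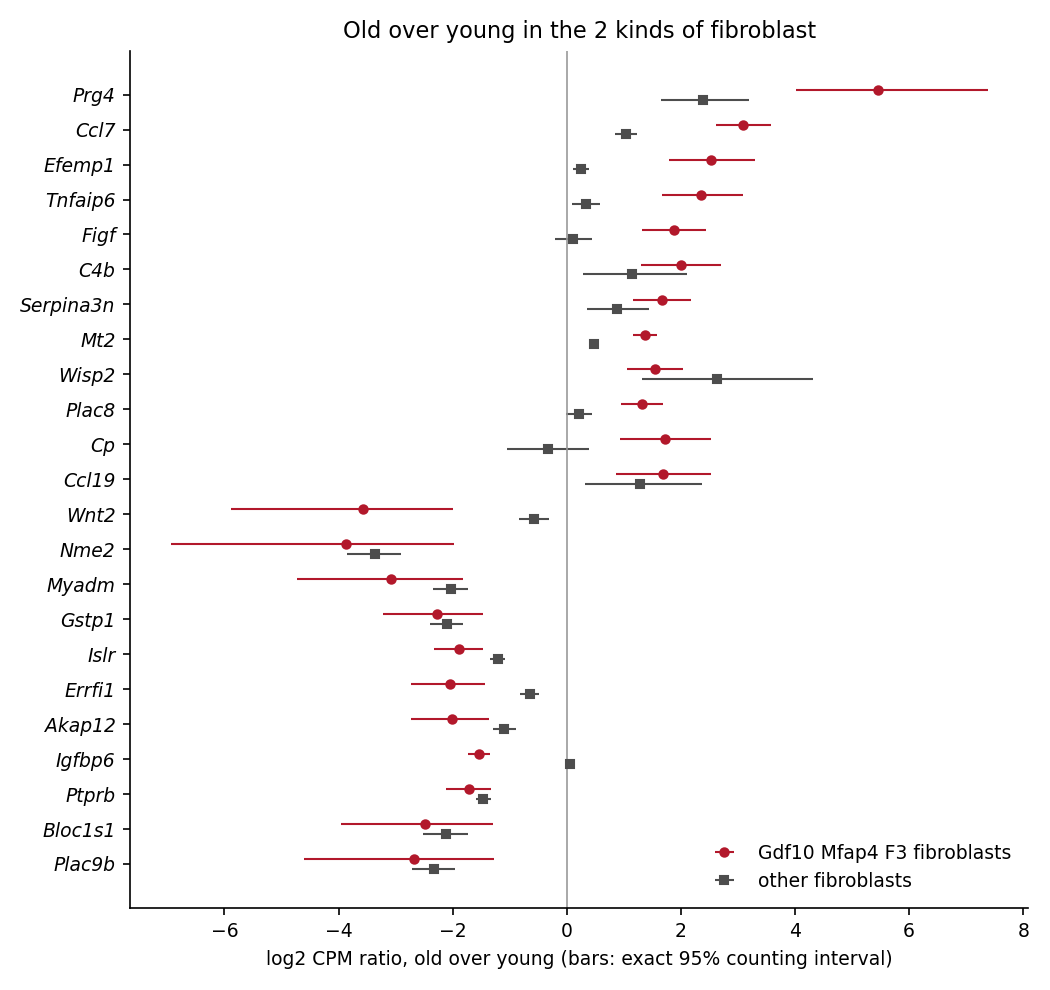
Log2 CPM ratio of old over young (x axis) for genes named within Gdf10 fibroblasts (y axis), in Gdf10 fibroblasts (circles) and other fibroblasts (squares), with bars for the exact 95% counting interval. The circle and the square lie apart for Efemp1 (2.52 and 0.25) and Igfbp6 (-1.54 and 0.06) and lie close for Gstp1 (-2.28 and -2.11).

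By gene list, matrix genes leaned lower in the old Gdf10 fibroblasts, and immune lists differed from each other. The lists were not read by age in other fibroblasts, so a lean particular to Gdf10 fibroblasts is not shown. Fbn1 was also lower in old other fibroblasts. The 8 fibroblast markers, Col1a1 and Col1a2 among them, summed to 18825 CPM in old and 30107 CPM in young Gdf10 fibroblasts. In other fibroblasts they summed to 15282 CPM old and 23831 CPM young. These 8 genes also chose the fibroblasts, so their sums give no separate support to the lean. Lists were read over 5328 genes with at least 20 UMIs, of which 3.34% were at least 2-fold higher and 10.6% at least 2-fold lower, with a median log2 ratio of -0.11. Of 20 collagen and collagen-processing genes, 10 were at least 2-fold lower and 0 higher, with a median of -0.84, and the lowest 2 were Col12a1 at -2.38 (-4.71 to -0.74) and Col16a1 at -2.03 (-3.96 to -0.58). Of 26 proteoglycans and matrix glycoproteins 6 were lower and 0 higher (median -0.57), among them Aspn, asporin, at 206 CPM in old against 587 CPM in young Gdf10 fibroblasts. Of 15 elastic fibre genes 4 were lower and 1, Efemp1, higher, and Fbn1 had 197 CPM in old against 500.2 CPM in young Gdf10 fibroblasts. Of 12 BMP and TGF-beta inhibitors and binders 4 were lower and 0 higher, while Bmp4 had 188 CPM in old against 81.0 CPM in young cells, a log2 ratio of 1.22 (0.59 to 1.83). Chrdl1, a secreted BMP antagonist, was the lowest of those 12, at -1.98 (-4.33 to -0.31). Of 8 Wnt ligands and receptors 3 were lower and 0 higher, namely Wnt2, Wnt9a at -1.70 (-4.06 to -0.00) and Wnt5a at -1.35 (-2.11 to -0.67). Nkd1, an intracellular Wnt antagonist, had 1 old and 22 young UMIs, a log2 ratio of -2.94 (-8.30 to -0.31).

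Of 15 chemokine and cytokine genes 5 were at least 2-fold higher in the old cells and 1 lower, with a median of 0.61, or 0.07 as a mean of CPM per barcode and 0.07 without the barcodes that held at least 4 endothelial markers. Tnfsf13b had 117 CPM in old against 29.6 CPM in young Gdf10 fibroblasts, and Ackr3 was the gene lower, with 139 CPM in old against 449 CPM in young cells. All 9 interferon-stimulated genes measured had a ratio above 0 (median 0.59), against 42.6% of all genes, though 1 of the 9 was 2-fold higher, and Bst2 had 161 CPM in old against 90.4 CPM in young cells. Of 14 genes of the complement list 1, C4b, was at least 2-fold higher and 2 were lower, with a median of -0.15. The lower ones were Cfb at -1.46 (-2.57 to -0.50) and C1qtnf3 at -2.12 (-5.24 to -0.12), a C1q- and TNF-related gene that is not itself a complement component. Of 11 MHC class I genes 0 were higher and 1 lower, with a median of 0.37, and 5 of the 11 were over 3 times as abundant in another class of barcodes. Among 23 immediate early genes 5 were lower and 0 higher, with Dusp1 at -1.47 (-1.83 to -1.13) and Atf3 at -1.35 (-1.95 to -0.81). Of 30 transcription factors 4 were higher and 3 lower: Sox4 had 27 old and 11 young UMIs (log2 ratio 2.82, 1.76 to 3.98), and Meox2 5 old and 57 young UMIs (-1.99, -3.66 to -0.68). Rdh10, which makes retinal from retinol, had 19 old UMIs and 1 young UMI in Gdf10 fibroblasts (5.77, 3.12 to 11.15). Of 33 antioxidant and xenobiotic genes 5 were lower and 1, Mt2, higher, and the lower ones included Fmo1 at -1.43 (-2.26 to -0.70) and Cat, catalase, at -1.40 (-2.78 to -0.25).

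Genes far more abundant in another class of barcodes were kept apart, since free RNA could carry them into fibroblast barcodes. Among the genes whose interval did not include 0, 20 higher and 4 lower in the old Gdf10 fibroblasts stood at over 3 times their CPM in another class. They were left out of the genes named by rank above. The age counts and medians of the gene lists still include genes past that 3-fold limit. These were 5 of 11 MHC class I, 3 of 23 immediate early and 1 of 9 interferon-stimulated genes, and some in other lists. Apoe, an apolipoprotein, had 1192 CPM in old and 486 CPM in young Gdf10 fibroblasts, with 7952 CPM in old macrophage barcodes. Srgn, Vcam1, Tm4sf1, Cytl1, Ehd4, Tgm2, Vwf and Epas1, all carried most by endothelial barcodes, had log2 ratios between 1.09 and 2.15. Cd74, the MHC class II chaperone, had 21 old and 3 young UMIs in Gdf10 fibroblasts, and 941 old and 6 young UMIs in other fibroblasts.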

How the data were processed

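Cells of 1 old and 1 young mouse aorta were profiled by droplet single-cell RNA sequencing of 3′ ends. The authors deposited UMI counts per gene and barcode for each library, and Cell Ranger and the GRCm38 build are named per the submitters' processing notes, with neither a version nor an annotation stated. The 27998 genes and 4774 barcodes were used as deposited, with no further barcode filter and no doublet caller.

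Fibroblasts were taken by the rule in the opening of the results, which weighs their markers against endothelial markers only. Any other barcode took the class whose markers it held the largest share of, above a set minimum share. UMIs were summed per library and class and scaled to 1000000 (CPM). Ratios are log2 of CPM with 95% exact binomial intervals, a sum of 0 was set at a floor of 3 counts, and shares carry exact Clopper-Pearson intervals. Intervals and floors cover counting error only. Cells are not replicates and each age has 1 library, so no test was made. The deposited counts range from 1541 to 28278 UMIs per barcode in the old and 2287 to 34262 in the young library.

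Named genes are the 15 highest and 15 lowest by the interval bound nearest to 0 in the weaker library, the 12 highest and 12 lowest for age, 4 each way for the difference of age ratios, and in each list the 2 highest and 2 lowest and any gene 2-fold apart in both libraries. Mitochondrial, ribosomal protein, haemoglobin, unnamed, sex-linked marker and class-defining genes were left out of the ranks. Some further list genes were named after their values were seen, and a few genes that meet the rule are not reported here. The members, the 33 gene lists and the rules were chosen with earlier results of these data known, so the lists give no independent support. Gene coordinates were matched by name to GENCODE vM21 (GRCm38), and 3′ sequence sharing was read from its transcripts. Alternatives were barcode filters, other marker cuts, other scalings and UMI minimums. Scripts were tested on simulated data and ran under Python 3.11.15 with scipy 1.17.1, numpy 2.4.6, matplotlib 3.10.9 and pandas 2.3.3.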

Additional observations from a re-analysis of the deposited data

Results flagged for a closer look

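For the results below, an effect pointed one way in one library or kind of fibroblast and the other way in the other and neither counting interval included 0. These differences were not tested, since each age has 1 library.

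Between Gdf10 fibroblasts and other fibroblasts, the log2 ratio of Ccl7 was 0.72 in the old and -1.34 in the young library, on few barcodes. Islr had -0.48 in the old and 0.20 in the young library, Errfi1 -1.16 old and 0.24 young, Akap12 -0.67 old and 0.25 young, and Thbd -1.22 old and 0.32 young. Rarres2, which encodes the chemoattractant chemerin, had 0.22 in the old and -0.18 in the young library. Fstl3, a follistatin-like inhibitor of activin, had -0.61 in the old library, where Gdf10 fibroblasts held 0 UMIs and were set at 3, and 1.25 in the young library. Rdh10 had 1.07 in the old and -2.78 in the young library, where Gdf10 fibroblasts held 1 UMI. Gadd45a, a growth arrest gene, had -1.79 in the old and 0.91 in the young library.

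Between old and young, the log2 ratio of Igfbp6 was -1.54 in Gdf10 fibroblasts and 0.06 in other fibroblasts. Sfrp2 had 0.70 in Gdf10 fibroblasts and -0.28 in other fibroblasts, Cxcl12 0.50 in Gdf10 and -0.24 in other fibroblasts, and Gpx3 0.29 in Gdf10 and -0.55 in other fibroblasts. Gadd45a had -1.80 in Gdf10 fibroblasts and 0.90 in other fibroblasts.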

How the results depend on the processing

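The alternatives were run on 108 values, those of genes named by rank with some kept apart as possible free RNA. Genes named only from a gene list were not put through them gene by gene. Of 1404 values under the alternatives, 1358 kept their direction and the side of 0 of their interval. Another 37 kept their direction with an interval that included 0, and 9 reversed. The raised and the lowered UMI minimum cannot change a gene's ratio, so the 108 values under each were the same by design. The barcode filter and leaving out equal sums kept the same 56 old and 89 young Gdf10 fibroblasts, so little could move there. All 9 reversals came from leaving out barcodes with at least 2 markers of another class, which left 15 old and 37 young Gdf10 fibroblasts. There Mrgprg had a log2 ratio over other fibroblasts of 0.24 in the young library, and Krtdap 0.30 and Arl4d 0.079 in the old library, all with 0 UMIs set at 3. The old over young log2 ratio there was -0.35 for Mt2, -0.54 for Wisp2, -0.66 for Ccl19, -0.17 for Vcam1 and -0.056 for H2-K1, and the difference of Ccl7 from other fibroblasts was -0.61. The list medians became 1.16 for the age ratio of BMP and TGF-beta ligands and -0.23 for chemokines and cytokines over other fibroblasts in the young library. In that setting Gdf10 fibroblasts were 16.5% of old and 51.4% of young fibroblasts, 22 genes were higher and 30 lower than in other fibroblasts, 14 were higher and 95 lower in the old than the young cells, 16 age ratios differed upward and 3 downward, and 8 lists had medians under 0 in both libraries. The smaller sums put fewer genes past the UMI minimum. A UMI minimum raised 2-fold gave 50 genes higher and 73 lower than in other fibroblasts, 16 higher and 83 lower by age, and 9 upward and 2 downward differences. A minimum of 10 UMIs gave 296 and 191, 460 and 1023, and 144 and 34. Without mitochondrial, ribosomal protein and haemoglobin genes in the CPM, 83 genes were higher and 122 lower by age, and 16 list medians were above 0 by age, against 9. Relative to the median of all genes, 12 age ratios differed downward and 15 list medians were above 0. With the mean of CPM per barcode, 61 age ratios differed upward and 12 downward, and 14 list medians were above 0. Chosen after seeing the data, leaving out barcodes with at least 4 endothelial markers gave 23 genes higher by age, a median age ratio of 0.043 for BMP and TGF-beta ligands and a median of 0.075 for proliferation genes over other fibroblasts in the old library. Leaving out the deepest Gdf10 fibroblast of each library gave 8 lists with medians under 0 in both libraries. Thinning to 3000 UMIs before the rule, with shallower barcodes left out, gave a share of 4.66% in the old and 34.2% in the young library. Over the other alternatives the share lay between 9.14 and 12.2% in the old and between 36.4 and 43.1% in the young library. The cause of these changes was not tested. No paired analysis was possible because each age has 1 library and the labels give no replicate numbers. The 56 old Gdf10 fibroblasts hold 223161 UMIs, which limits genes under about 50 UMIs to wide intervals.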
